A study of Mus musculus with 12 samples.

Results

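The genes described here are 10 enzymes of the pentose phosphate pathway and of nucleotide synthesis: G6pdx, Pgls, Pgd, Tkt, Taldo1, Rpia, Prps1, Prps2, Cad and Umps. They were taken by symbol from the deposited table of read counts, 10 of the 54532 genes in it, and each symbol has 1 row. They were read in all 12 libraries of a study of male mice given human HKDC1, a hexokinase, in the liver. The mice received either AAV8-TBGp-hHKDC1 (hHKDC1 OE) or the empty AAV8-TBGp vector (null) at 10 weeks of age and were kept on a low-fat diet for the next 16 weeks. Liver and subcutaneous fat were then sequenced, with 3 libraries for each of the 4 groups (liver null, liver hHKDC1 OE, fat null and fat hHKDC1 OE). All 4 groups carry the viral vector, and there was no uninjected group. TBGp, the thyroxine-binding globulin promoter, is active in hepatocytes, so the transgene was directed to the liver, and the fat libraries come from a tissue that the vector was not built to change. The labels call replicates 2 and 3 of hHKDC1 OE in each tissue knockouts in 1 field while naming overexpression in the title and the treatment, and the groups follow the latter. The human transgene was not analysed here, so the labels could not be checked against it. The mouse gene Hkdc1 had 0 to 8 counts in every library.

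The pentose phosphate pathway starts from glucose 6-phosphate, the product of hexokinases. Its oxidative branch (glucose-6-phosphate dehydrogenase, 6-phosphogluconolactonase and 6-phosphogluconate dehydrogenase) makes NADPH and ribulose 5-phosphate, and its non-oxidative branch (ribose-5-phosphate isomerase, transketolase and transaldolase) exchanges sugar phosphates with glycolysis and gives ribose 5-phosphate. Ribose 5-phosphate is activated by phosphoribosyl pyrophosphate (PRPP) synthetases. The de novo pyrimidine route attaches PRPP to a base, whereas the de novo purine route starts from PRPP. In fat and liver, NADPH is used to build fatty acids and to keep glutathione reduced. The comparison of hHKDC1 OE with null addresses whether the RNA of these enzymes moved when a further hexokinase was supplied.

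Library totals were 15496019 to 19954971 counts on genes, and mitochondrial genes took 3.79% to 7.64% of them. Hepatocyte marker genes, led by Alb, summed to between 151800 and 156600 CPM, counts normalised for library depth, in liver null and to between 1825 and 5590 CPM in fat null. Adipocyte markers, led by Fabp4, summed to between 34.86 and 53.9 CPM in liver null and to between 13620 and 19150 CPM in fat null, so each tissue carried the markers of its label. Skeletal muscle markers were uneven among the fat null libraries, at 12330, 14980 and 351 CPM in replicates 1 to 3, against at most 35.88 CPM in liver null. The fat hHKDC1 OE libraries also differed among themselves in lymphocyte markers, which is given with the fat results.

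Sequences are shown where they bear on how a value can be read. Prps1 and Prps2 are isozymes of PRPP synthetase, and Prps1l1 and Prps1l3 are listed as further genes of the same family. In GENCODE mouse release 21, the coding sequences of all 4 are 954 bases long. Against Prps1, Prps1l3 differed at 30 bases (96.9% identity), Prps1l1 at 125 (86.9%) and Prps2 at 191 (80.0%). The longest stretch without a difference was 164 bases in Prps1l3 and 20 bases in Prps2. The first 60 bases of each coding sequence are printed here to show this, with capitals for bases that differ from Prps1.
Prps1: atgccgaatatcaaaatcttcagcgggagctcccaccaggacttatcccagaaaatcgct
Prps1l3: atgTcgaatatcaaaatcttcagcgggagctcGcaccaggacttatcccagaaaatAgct
Prps1l1: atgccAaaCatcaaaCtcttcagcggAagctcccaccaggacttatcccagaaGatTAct
Prps2: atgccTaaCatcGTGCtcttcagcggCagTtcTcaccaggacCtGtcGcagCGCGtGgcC
Reads could therefore be shared between Prps1 and Prps1l3 more easily than between the isozymes Prps1 and Prps2. Prps1l3 held 354 to 524 counts per library in liver and 171 to 258 in fat, against 382 to 512 and 1181 to 2024 for Prps1, and Prps1 values are uncertain to that extent. Prps1l1, and the near copies G6pd2, Tktl1 and Tktl2 of other members, had 0 to 5 counts in any library.

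Promoters of the 10 genes, 250 bases before to 50 after the annotated start, were matched by symbol in the RefSeq promoters of GRCm38.p6, and all 10 had an entry (Pgd had 2). The core of the antioxidant response element, TGACNNNGC on either strand, was present in 1 window each of G6pdx, Pgd and Cad. It is present in 12.4% of all 32851 promoter windows of this length. The E-box CACGTG, which reads the same on both strands and can share its last 2 bases with the start of the other motif, was found in 0 of the members' windows and in 7.2% of all windows. The windows with the antioxidant core are shown because G6pdx and Pgd were the members that differed most between the tissues and because Cad lies in the pyrimidine branch. Capitals mark the motif. The Pgd window shown is the second of its 2 and lies within the gene, past its 5' end at chr4:149166771 on the minus strand. In it the motif lies just inside the annotated start of that entry. The other Pgd window, chr4:149166656-149166955, spans the 5' end of the gene and held 0 matches.
G6pdx, chrX:74428831-74429130, minus strand: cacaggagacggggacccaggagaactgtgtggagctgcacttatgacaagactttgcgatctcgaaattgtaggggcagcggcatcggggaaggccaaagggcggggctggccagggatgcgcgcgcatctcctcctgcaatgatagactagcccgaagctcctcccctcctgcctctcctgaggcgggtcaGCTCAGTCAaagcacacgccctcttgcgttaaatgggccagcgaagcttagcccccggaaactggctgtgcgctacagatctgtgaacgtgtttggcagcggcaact
Pgd, chr4:149166033-149166332, minus strand: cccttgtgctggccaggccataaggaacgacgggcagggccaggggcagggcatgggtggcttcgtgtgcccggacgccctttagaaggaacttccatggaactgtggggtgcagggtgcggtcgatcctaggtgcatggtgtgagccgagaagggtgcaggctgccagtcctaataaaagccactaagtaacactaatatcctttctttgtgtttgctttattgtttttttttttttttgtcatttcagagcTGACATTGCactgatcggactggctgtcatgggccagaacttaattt
Cad, chr5:31054530-31054829, plus strand: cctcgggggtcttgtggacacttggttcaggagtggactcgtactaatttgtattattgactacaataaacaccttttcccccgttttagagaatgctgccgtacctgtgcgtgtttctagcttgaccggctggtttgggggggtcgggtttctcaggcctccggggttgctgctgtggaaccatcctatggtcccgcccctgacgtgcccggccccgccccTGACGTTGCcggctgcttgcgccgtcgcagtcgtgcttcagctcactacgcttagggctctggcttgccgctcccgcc
A match of these letters is a description of the window and was not tied to any binding data.

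The levels of the members were set against each other by FPKM, read fragments scaled by gene length and library depth, which the authors deposited. Taldo1, transaldolase, had the highest level in every group, with a mean of 83.1 ± 14.3 FPKM (SD, n = 3) in liver null and 136 ± 5.71 FPKM in fat null. In liver null it was followed by Pgls (29.6 ± 2.42 FPKM) and Tkt (28.0 ± 3.07 FPKM), whose ranges overlapped, and then by Prps1 (18.4 ± 3.41 FPKM). Pgd (10.2 ± 3.72 FPKM) and Umps (8.97 ± 0.951 FPKM) came next with overlapping ranges, and Prps2 (3.675 ± 0.1596 FPKM) stood apart below them. G6pdx, the entry enzyme of the pathway, was near the bottom in liver null at 1.95 ± 0.385 FPKM, level with Cad (1.75 ± 0.135 FPKM) and above Rpia (0.9958 ± 0.1402 FPKM).

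In fat null the order was different. Tkt (74.7 ± 5.26 FPKM) stood below Taldo1 alone, followed by G6pdx (56.6 ± 6.57 FPKM) and Pgd (49.6 ± 2.88 FPKM), whose ranges overlapped. Prps1 (29.9 ± 3.21 FPKM), Pgls (13.1 ± 0.833 FPKM) and Umps (5.10 ± 0.597 FPKM) came after them, each apart from the next. Prps2 (3.35 ± 0.964 FPKM) and Cad (2.597 ± 0.1432 FPKM) overlapped, and Rpia was again the lowest at 2.02 ± 0.207 FPKM. The order was the same in liver hHKDC1 OE but for Umps and Pgd, and in fat hHKDC1 OE but for Rpia and Cad. In both of these groups the pair that had changed places overlapped in range. These levels depend on a gene length that sums all annotated exons. With the length of the transcript of the longest coding sequence instead, an alternative chosen after seeing the data, Taldo1 stayed the highest in all 4 groups, Cad became the lowest, and Pgd passed G6pdx in both fat groups. In both liver groups Pgd then passed Prps1 (29.73 against 18.61 in null) and Rpia passed G6pdx (2.918 against 2.267 in null). On that length Pgls also passed G6pdx in fat hHKDC1 OE, with a mean of 66.37 against 46.73, and came near it in fat null, with 55.29 against 65.76. In both fat groups Pgls passed Prps1 (55.29 against 30.28 in null), and Rpia passed Prps2 and Umps (5.923 against 3.507 and 5.095 in null).

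**Figure D1:**
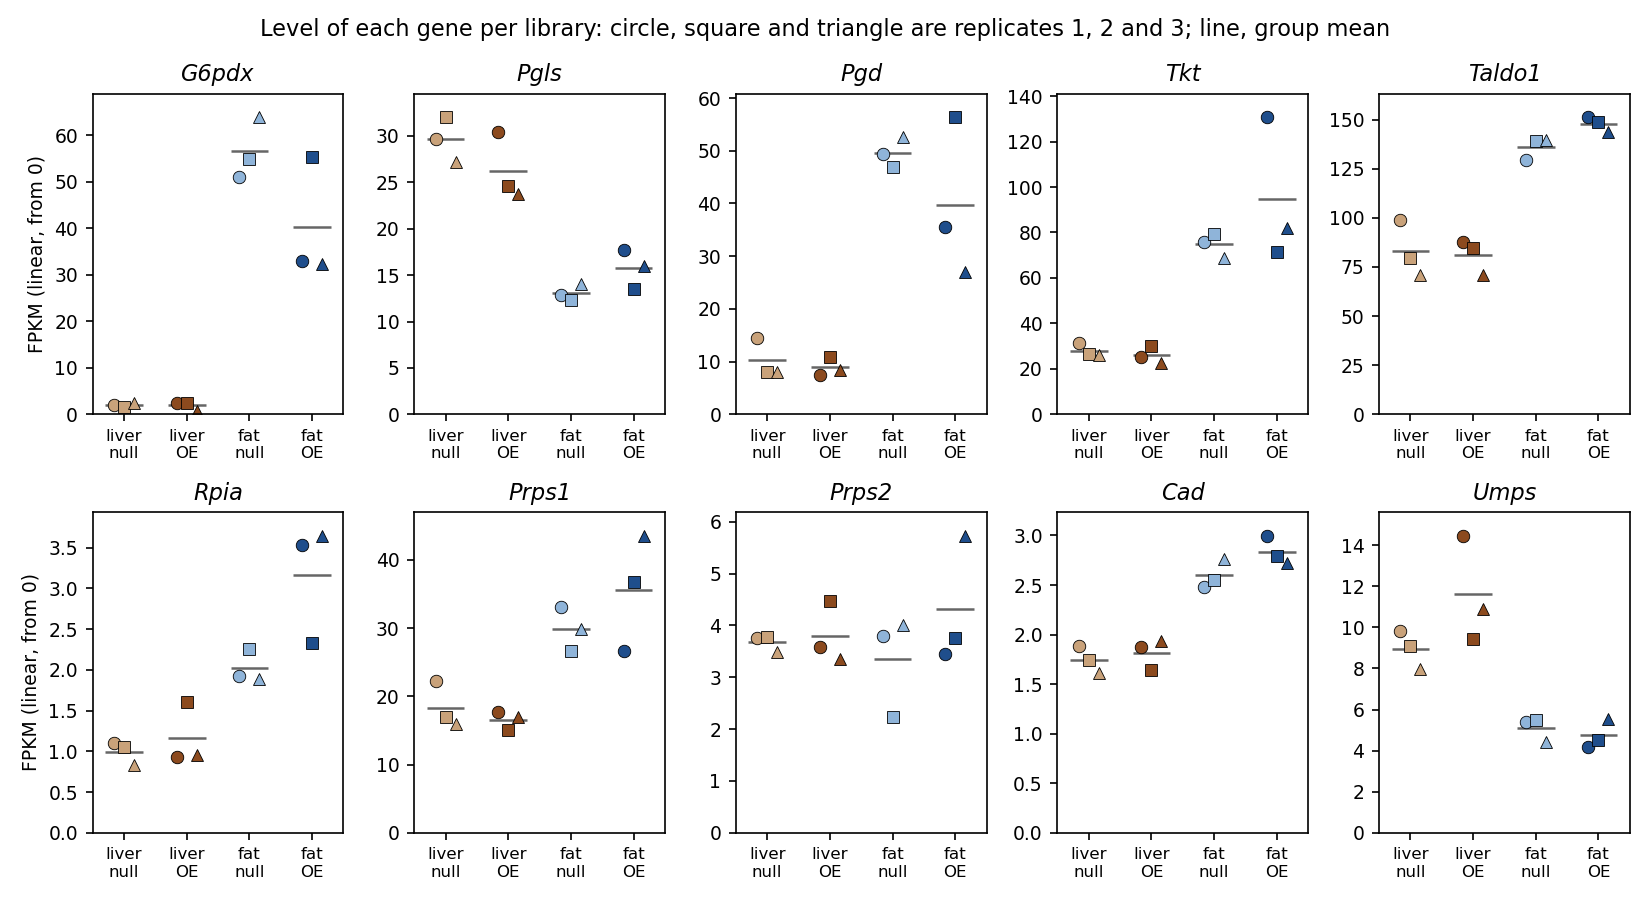
FPKM of each gene (vertical axes, linear and starting at 0, with a scale of their own per gene) in the 12 libraries, by group. Circles, squares and triangles are replicates 1, 2 and 3 and the line is the group mean. G6pdx lay between 0.763 and 2.49 FPKM in all 6 liver libraries and between 32.4 and 63.9 FPKM in all 6 fat libraries, whereas Prps2 overlapped between the tissues.

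The null libraries of the 2 tissues were compared to show where these genes are used. Fat null carried far more RNA of the NADPH-producing dehydrogenases than liver null: G6pdx was 27.9-fold and Pgd 4.68-fold higher. The 3 non-oxidative enzymes were also higher in fat, by 1.58-fold to 2.58-fold, as were Prps1 and Cad. Pgls and Umps were lower in fat on the main scaling, and Prps2 did not pass the test. In all, 7 of the 10 members were called higher in fat null and 2 lower (edgeR's quasi-likelihood test, Benjamini-Hochberg adjusted p under 0.05 over 15259 genes tested). The tissues differ at most genes: 33.8% of all genes tested were called higher in fat and 30.5% lower, 64.3% together. The groups did not overlap for 9 of the 10 members and for 71.6% of all genes. A bulk library cannot tell fewer cells of a type from less RNA per cell, and this holds for every value here.

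G6pdx encodes glucose-6-phosphate dehydrogenase, which commits glucose 6-phosphate to the pathway and makes the first NADPH (ENSMUSG00000031400, chrX:74409483-74429194, minus strand). It had 69, 55 and 87 counts in the liver null libraries and 3496, 3758 and 4855 in the fat null libraries. In FPKM these were 1.94, 1.58 and 2.34 in liver null against 51.1, 54.9 and 63.9 in fat null, with a wide gap between the groups. The log2 fold change, fat minus liver, was 4.80 ± 0.20 (SE, edgeR adjusted p = 2.1e-06), with an interval (95%) from 4.33 to 5.27. Fat null replicate 3, with few muscle transcripts, had the highest G6pdx of the 3. G6pdx overlaps Ikbkg on the opposite strand, and the libraries kept no strand, so reads from the shared stretch cannot be told apart. Ikbkg had between 703 and 1307 counts in every library of both tissues, a narrower range than G6pdx.

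Pgd encodes 6-phosphogluconate dehydrogenase, which makes the second NADPH and ribulose 5-phosphate (ENSMUSG00000028961, chr4:149149991-149166771, minus strand). It had 14.5, 8.07 and 8.09 FPKM in liver null and 49.4, 46.8 and 52.6 FPKM in fat null. Liver null replicate 1 was above the other two, and all fat libraries were above all liver libraries. The log2 fold change was 2.23 ± 0.25 (edgeR adjusted p = 0.00012).

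Pgls encodes 6-phosphogluconolactonase, the step between these dehydrogenases (ENSMUSG00000031807, chr8:71592176-71601092, plus strand). It went the other way, at 29.7, 32.0 and 27.2 FPKM in liver null and 12.9, 12.4 and 14.0 FPKM in fat null. The groups did not overlap, and the log2 fold change was -1.23 ± 0.13 (edgeR adjusted p = 7.4e-05). Pgls overlaps the protein-coding gene Fam129c on the same strand, so the strand does not separate reads from the shared stretch. Fam129c had between 0 and 165 counts in every library. The ratio of G6pdx to Pgls within a library does not depend on how libraries are scaled. It was 0.0492 to 0.0862 in liver null and 3.96 to 4.56 in fat null on the FPKM scale. How far G6pdx stood above Pgls in fat null depends on the gene length used, as given above, whereas the fold difference of the ratio between the tissues does not. The exact two-sided permutation test of this ratio gave p = 0.1, the smallest that 3 against 3 libraries allow. G6pdx and Pgd together made up 6.48% to 9.27% of the summed FPKM of the 6 pentose phosphate members in liver null and 30.4% to 34.2% in fat null.

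Tkt encodes transketolase, a thiamine-dependent enzyme that moves units of a pair of carbons (ENSMUSG00000021957, chr14:30548359-30574720, plus strand). It had 31.6, 26.5 and 26.0 FPKM in liver null and 75.9, 79.3 and 69.0 FPKM in fat null, a log2 fold change of 1.37 ± 0.17 (edgeR adjusted p = 0.00021). Taldo1 (ENSMUSG00000025503, chr7:141392199-141402968, plus strand) had 98.8, 79.7 and 70.8 FPKM in liver null and 129, 139 and 140 FPKM in fat null, with log2 fold change 0.66 ± 0.17 (edgeR adjusted p = 0.0085). In both genes the fat libraries lay above the liver libraries, and the ratio of Tkt to Taldo1 was 0.340 ± 0.0248 in liver null and 0.551 ± 0.0496 in fat null (SD, n = 3 each, exact permutation p = 0.1).

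Rpia encodes ribose-5-phosphate isomerase, which gives the sugar that PRPP is made from (ENSMUSG00000053604, chr6:70765720-70792232, minus strand). With 54 to 68 counts in liver null it was among the least covered members. It had 1.10, 1.05 and 0.836 FPKM in liver null and 1.92, 2.26 and 1.88 FPKM in fat null, without overlap, and its log2 fold change was 0.97 ± 0.22 (edgeR adjusted p = 0.0055).

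Prps1 (ENSMUSG00000031432, chrX:140456613-140476140, plus strand) had 22.2, 16.9 and 15.9 FPKM in liver null and 33.1, 26.7 and 29.8 FPKM in fat null, with a log2 fold change of 0.65 ± 0.16 (edgeR adjusted p = 0.0070). Its isozyme Prps2 (ENSMUSG00000025742, chrX:167346322-167382749, minus strand) had 3.75, 3.78 and 3.49 FPKM in liver null and 3.80, 2.24 and 4.01 FPKM in fat null. These Prps2 values overlapped, and its log2 fold change was -0.19 ± 0.23 (edgeR adjusted p = 0.50, interval (95%) -0.73 to 0.35). Prps1 thus had 4.47 to 5.92 times the FPKM of Prps2 in liver null and 7.44 to 11.9 times in fat null (exact permutation p = 0.1 for the ratio). The copy Prps1l3 went the opposite way to Prps1, with a log2 fold change of -2.16 ± 0.18 (edgeR adjusted p = 3.1e-05).

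Cad encodes the trifunctional enzyme that starts pyrimidine synthesis (ENSMUSG00000013629, chr5:31054780-31078479, plus strand), and Umps encodes the bifunctional enzyme that attaches PRPP and ends with uridine monophosphate (ENSMUSG00000022814, chr16:33954782-33967038, minus strand). Cad had 1.88, 1.75 and 1.61 FPKM in liver null and 2.49, 2.55 and 2.76 FPKM in fat null, a log2 fold change of 0.52 ± 0.14 (edgeR adjusted p = 0.013). Umps had 9.84, 9.11 and 7.95 FPKM in liver null and 5.39, 5.49 and 4.41 FPKM in fat null, a log2 fold change of -0.87 ± 0.16 (edgeR adjusted p = 0.0017). The ratio of Umps to Cad was therefore 4.93 to 5.23 in liver null and 1.60 to 2.17 in fat null, with no overlap (exact permutation p = 0.1).

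The size of the smaller differences depends on how liver and fat are put on 1 scale. When libraries were scaled by their totals only, without TMM factors, the median log2 fold change of all genes went from 0.09 to 0.98. The members called then became 8 higher and 1 lower, beside 59.1% and 15% of all genes (9012 and 2286 genes, in place of 5163 and 4647). On that scaling Umps stood at 0.02 (edgeR adjusted p = 0.90) and Prps2 at 0.71 (edgeR adjusted p = 0.035), while Pgls remained lower in fat at -0.34 (edgeR adjusted p = 0.048). The lower Umps in fat is thus a statement relative to other genes, whereas G6pdx, Pgd, Tkt, Taldo1, Rpia, Prps1 and Cad were higher in fat on each scaling tried.

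The same 7 members were called higher and the same 2 lower when the hHKDC1 OE libraries of both tissues were compared, which shares no library with the comparison above and was chosen after seeing the data. There, 31.2% of the 15817 genes tested were called higher in fat and 25.5% lower, 56.7% together. The log2 fold change of G6pdx was 4.36 ± 0.47 (20.5-fold, edgeR adjusted p = 0.00018) and that of Pgd 2.10 ± 0.31 (4.30-fold, edgeR adjusted p = 0.00081). Pgls was at -0.79 ± 0.18 and Umps at -1.34 ± 0.21, each with groups apart, and Prps2 at 0.13 ± 0.26 (edgeR adjusted p = 0.70).

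**Figure D2:**
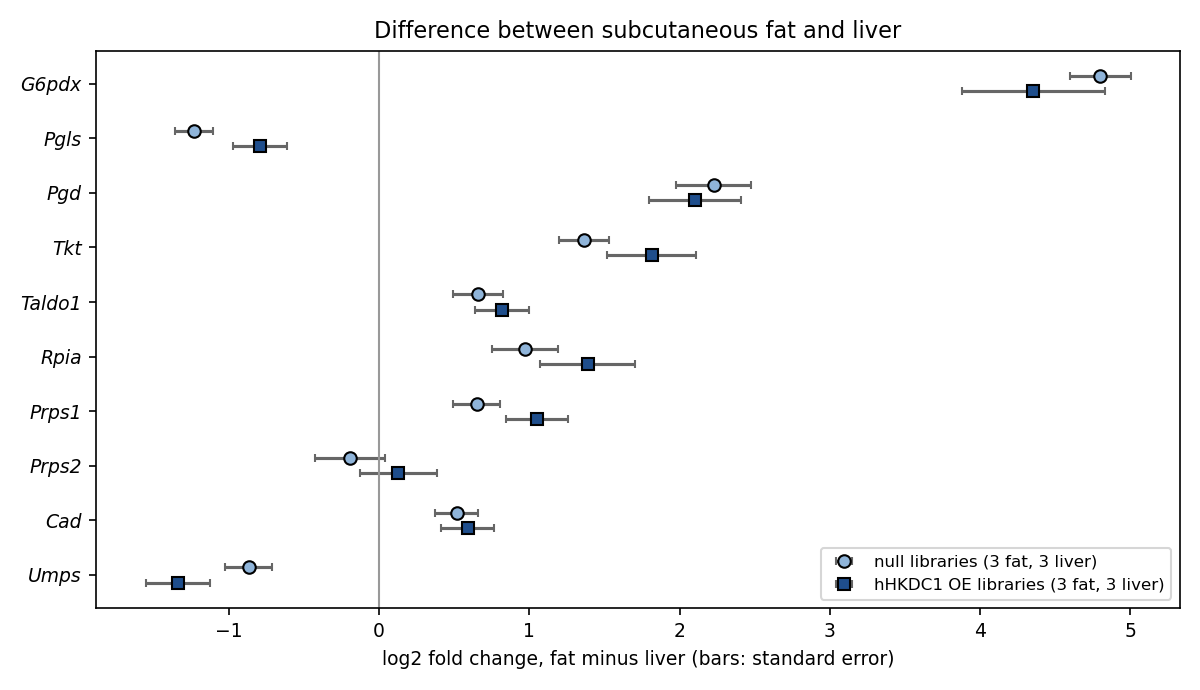
Log2 fold change of each gene between subcutaneous fat and liver (horizontal axis, fat minus liver, with the standard error as bars), for the 3 null libraries of each tissue (circles) and the 3 hHKDC1 OE libraries of each tissue (squares). G6pdx was at 4.80 in null and 4.36 in hHKDC1 OE, Pgls and Umps were below 0 in both on this scaling (Umps at 0.02 in null by library size alone), and Prps2 lay on either side of 0.

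The other genes of these routes did not share 1 direction between the tissues. Of 10 further pentose phosphate genes, 7 were tested, 1 was called higher in fat null (Tigar, a phosphatase that favours the pathway, log2 fold change 0.62 ± 0.21) and 3 lower: Dera (-2.43 ± 0.15), Shpk (-2.54 ± 0.16) and Rbks (-2.10 ± 0.22), which handle deoxyribose, sedoheptulose and ribose. The list's median was -0.41, against 0.09 for all genes tested. Among the further PRPP genes, Prpsap1, a partner of the synthetases, was lower in fat (-1.91 ± 0.18), 2 of 3 tested were called lower and the median was -1.91.

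Of 5 further pyrimidine genes tested, 2 were called higher, Ctps2 (2.03 ± 0.15) and Ctps (0.87 ± 0.29), both CTP synthases, and 2 lower, Nme1 (-1.95 ± 0.14) and Cmpk1 (-1.07 ± 0.18), which add phosphates to nucleotides. The purine route had 2 of 11 called higher and 5 lower with a median of 0.16. In it, Impdh1, a rate-limiting enzyme of GTP synthesis, was higher in fat (3.95 ± 0.19), and Paics (-1.93 ± 0.22), Ppat (-1.77 ± 0.23) and Adss (-1.34 ± 0.13) were lower. The entry enzymes of these routes thus went apart, with Cad higher and Ppat, which starts purine synthesis from PRPP, lower in fat.

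Salvage genes, which recycle bases and nucleosides, had 2 of 13 called higher and 5 lower, with a median of -0.47, and the 4 with the smallest p were Upp2 (-5.13 ± 0.36), Adk (-3.74 ± 0.26), Tk1 (-3.30 ± 0.32) and Aprt (-2.55 ± 0.21). Deoxynucleotide synthesis had 2 of 8 called higher and 4 lower (median -0.63), including the ribonucleotide reductase subunits Rrm2b (2.30 ± 0.17) and Rrm2 (-2.26 ± 0.35). Folate one-carbon genes had 2 of 7 higher and 4 lower (median -2.92), with Shmt1 at -4.66 ± 0.32, Shmt2 at -3.93 ± 0.21 and Mthfd1 at -2.92 ± 0.14. All values of the further lists are log2 fold changes, fat null minus liver null, from edgeR on TMM scaling, and their signs and calls are relative to it, since the median over all genes was 0.09 with it and 0.98 with scaling by library totals.

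Of the genes that supply glucose 6-phosphate, 2 of 7 were called higher in fat, the hexokinases Hk2 (7.09 ± 0.59) and Hk1 (2.77 ± 0.19), and 3 lower, among them Slc37a4 (-3.74 ± 0.24) and G6pc (-5.47 ± 0.52), which release free glucose from glucose 6-phosphate. The list's median was -0.39. Of the other NADPH enzymes, 0 of 6 tested were called higher in fat and 4 lower on TMM scaling (median -0.98), among them Idh1 (-1.69 ± 0.21) and Gsr (-1.14 ± 0.13), and Me1, malic enzyme, was at 0.34 ± 0.44 (edgeR adjusted p = 0.53). Lipogenic genes had 2 of 9 higher, Fasn (2.25 ± 0.56) and Acaca (1.65 ± 0.31), and 4 lower, with Pklr lowest at -5.66 ± 0.41 (median -0.78). Among NRF2 target genes 0 of 7 were called higher and 4 lower, led by Gclc (-3.24 ± 0.17) and Gclm (-2.72 ± 0.17), with a median of -0.50. Of the proliferation genes 3 of 9 were higher in fat null, Mki67 (2.76 ± 0.31), Top2a (1.85 ± 0.49) and Ccnb1 (3.07 ± 0.99), and Pcna was lower (-0.57 ± 0.19). The 10 hepatocyte markers lay between -5.77 and -5.38 in this comparison. The part of hepatocyte RNA in the fat values of G6pc, Pklr and Upp2 was not tested.

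**Figure D3:**
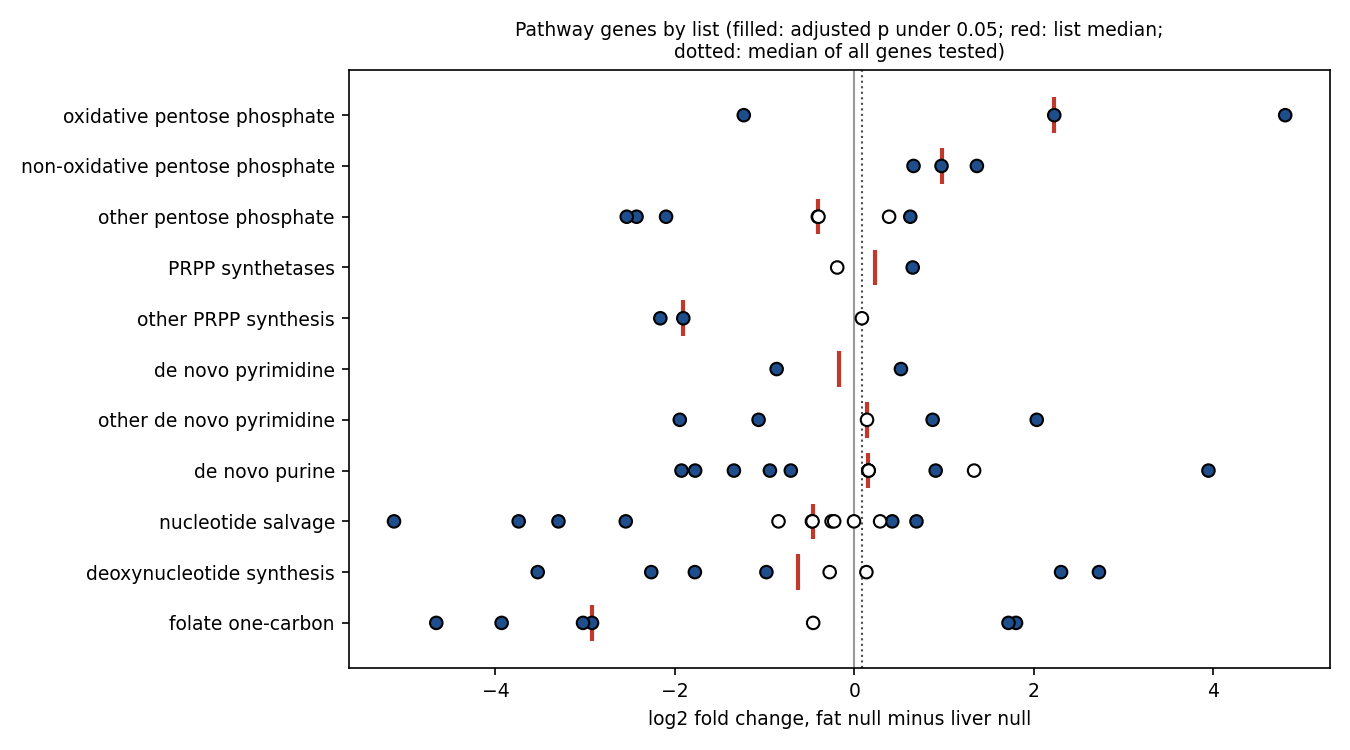
Log2 fold change, fat null minus liver null (horizontal axis), of the tested genes of each pathway list, with 1 point per gene. Filled points passed the edgeR test at an adjusted p under 0.05, red lines are the list medians, and the dotted line is the median of all genes tested (0.09). The oxidative and non-oxidative pentose phosphate members had medians of 2.23 and 0.97, and folate one-carbon genes had a median of -2.92.

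In liver, the comparison of hHKDC1 OE with null asks whether the enzymes followed the transgene. No member passed the test: 0 of 10 were called, beside 0% of the 13351 genes tested (edgeR, adjusted p under 0.05). At an unadjusted p under 0.05 it was 1 of 10, Umps, beside 6.94% of all genes (927 genes), and DESeq2 called 0 members and 90 genes, 0.674% of those it tested. The members' median log2 fold change was -0.01, against 0.01 for all genes, with 4 members above 0 and 6 below. The 3 oxidative enzymes were at -0.01 to -0.16, the 3 non-oxidative ones at -0.07 to 0.27, and the PRPP synthetases at -0.11 and 0.08.

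Umps had 24.5, 23.5 and 20.7 CPM, normalised within liver, in the null libraries and 37.1, 25.1 and 28.4 CPM in hHKDC1 OE. The groups did not overlap, the gap being small beside the spread of the hHKDC1 OE libraries, and in all genes tested 12.5% had groups apart. The log2 fold change was 0.40 ± 0.18 with an interval (95%) from 0.01 to 0.79 (edgeR adjusted p = 0.71, exact two-sided permutation p = 0.1). Over the alternatives its adjusted p lay between 0.55 and 0.82, and with 1 library left out between 0.29 and 0.99, with a log2 fold change of 0.23 without hHKDC1 OE replicate 1 and up to 0.52 otherwise. Hepatocyte markers summed to between 114600 and 116200 CPM in liver null and to between 72830 and 98900 CPM in hHKDC1 OE, and macrophage markers to between 175.7 and 300.1 CPM and between 272.5 and 535.9 CPM. Alb made up much of the hepatocyte sum, at 71230 CPM in null and 46250 CPM in hHKDC1 OE, and the list went both ways, with 4 of 10 markers above 0 and 6 below. Of the macrophage markers 8 of 8 were above 0, and 0 markers of either list were called. Their part in the Umps value was not tested. Its ratio to Cad on the FPKM scale was 4.93 to 5.23 in null and 5.64 to 7.71 in hHKDC1 OE (exact permutation p = 0.1).

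G6pdx was low in liver and varied between libraries. It had 69, 55 and 87 counts in null and 92, 108 and 33 in hHKDC1 OE, where replicate 3 was the lowest of all 6 and the other two the highest. Its log2 fold change was -0.01 ± 0.42 and its interval (95%) ran from -0.96 to 0.94, so a difference within that range would not have been told from the spread between these libraries.

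Pgd had 66.8, 38.4 and 39.0 CPM in null and 35.6, 53.1 and 40.2 CPM in hHKDC1 OE, with 1 high library in each group. Its log2 fold change of -0.16 ± 0.24 became 0.15 when liver null replicate 1 was left out. Tkt (143 to 166 CPM in null, 125 to 170 in hHKDC1 OE) and Taldo1 (115 to 153 CPM in null, 115 to 140 in hHKDC1 OE) overlapped fully, with log2 fold changes of -0.07 ± 0.16 and 0.00 ± 0.16. Their intervals, -0.43 to 0.29 and -0.36 to 0.36, were narrower than that of G6pdx. The interval of Pgls ran from -0.47 to 0.18, that of Prps1 from -0.47 to 0.24, that of Prps2 from -0.33 to 0.50, that of Cad from -0.28 to 0.46 and that of Rpia from -0.41 to 0.94.

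The wider lists in liver gave the same count: 0 genes were called in the pentose phosphate, PRPP, pyrimidine, purine, salvage, deoxynucleotide, folate, NADPH, glucose 6-phosphate, lipogenic, NRF2 and proliferation lists. In each list up to 2 genes of at least 1 CPM with the largest difference are given. They were Upp1 (-1.08 ± 0.63) and Upp2 (-0.50 ± 0.27), uridine phosphorylases, in salvage, and Mthfd2 (0.87 ± 0.61) and Mthfd1l (-0.60 ± 0.43) in folate metabolism. In deoxynucleotide synthesis Rrm2b was at -0.33 ± 0.29 and Rrm1 at -0.22 ± 0.21, with 7 of 7 genes below 0. Lipogenic genes had a median of -0.53, with Scd1 at -1.06 ± 0.54 and Thrsp at -0.95 ± 0.31, and NRF2 targets a median of 0.19, with Hmox1 at 0.30 ± 0.27 and Nqo1 at -0.28 ± 0.52. For the other lists these were Rpe (-0.28 ± 0.18) and H6pd (0.24 ± 0.19) in the pentose phosphate list, Prps1l3 (-0.29 ± 0.18) and Prpsap1 (0.22 ± 0.15) for PRPP, Cmpk1 (-0.27 ± 0.17) and Ctps2 (0.14 ± 0.22) for pyrimidines, and Gmps (-0.27 ± 0.18) and Adssl1 (-0.22 ± 0.19) for purines. Me1 (-0.34 ± 0.43) and Idh1 (-0.22 ± 0.18) led the NADPH list, Hk3 (0.59 ± 0.51) the glucose 6-phosphate list, and Mcm2 (-0.35 ± 0.53) and Pcna (-0.34 ± 0.19) the proliferation list. All of these are log2 fold changes, hHKDC1 OE minus null, that did not pass the edgeR test.

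In subcutaneous fat the members' values also spread without a call. With all 6 libraries, 0 of 10 members passed the edgeR test, beside 0% of the 16380 genes tested. At an unadjusted p under 0.05 it was 1 member, Rpia, beside 17.7% of all genes (2903 genes), and DESeq2 called 0 members and 1301 genes, 8.27% of those it tested. The members' median log2 fold change was 0.25, against -0.05 for all genes, with 7 members above 0, as were 46.1% of all genes. G6pdx and Pgd lay below 0, and the non-oxidative enzymes, the PRPP synthetases, Pgls and Cad above it. Umps was at -0.05 ± 0.20, and at 0.11 with library size alone, where the median of all genes went to 0.11.

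These values have to be read beside the composition of the fat libraries. B cell markers, led by Cd79a, summed to 10.4, 7.44 and 14.3 CPM in fat null and to 1071, 70.9 and 800 CPM in hHKDC1 OE replicates 1 to 3. T cell markers, led by Lck, summed to 9.18, 6.20 and 17.5 CPM and to 490, 37.8 and 547 CPM. All 10 B cell markers and 7 of 8 T cell markers had groups apart, and 0 of these markers were at 0 counts in every library of either group. hHKDC1 OE replicate 2 therefore stood nearer to the null libraries than to the other two of its group. Proliferation genes summed to 70.4 to 79.3 CPM in null and to 196, 90.5 and 235 CPM in hHKDC1 OE, with 9 of 9 above 0 and none called. Macrophage markers, led by Lyz2, summed to 273 to 598 CPM and 825 to 1506 CPM. Hepatocyte markers were at 2632 to 7988 CPM in null and 796 to 2205 CPM in hHKDC1 OE, muscle markers at 502 to 21460 and 997 to 14610 CPM, and keratinocyte markers at 14.3 to 262 and 2.13 to 10.6 CPM. Adipocyte markers (19640 to 27430 and 18270 to 25730 CPM) and endothelial and stromal markers (2935 to 4222 and 1799 to 4827 CPM) overlapped between the groups, and erythroid markers were at 582 to 861 and 239 to 440 CPM. The part of these cells in the values of the members was not tested.

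G6pdx had 213, 233 and 260 CPM in fat null and 146, 227 and 143 CPM in hHKDC1 OE. Replicates 1 and 3 of hHKDC1 OE were below all null libraries and replicate 2 was within them, so the groups overlapped. The log2 fold change was -0.45 ± 0.22 (edgeR adjusted p = 0.33, interval (95%) -0.97 to 0.07). Pgd followed the same libraries, with 430, 416 and 448 CPM in null and 330, 483 and 250 CPM in hHKDC1 OE, and its log2 fold change was -0.28 ± 0.26 (edgeR adjusted p = 0.57). It was -0.08 without hHKDC1 OE replicate 3 and -0.58 without replicate 2.

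Rpia went the other way in the same libraries. It had 13.9, 16.7 and 13.3 CPM in null and 27.3, 16.6 and 28.0 CPM in hHKDC1 OE, with replicate 2 again among the null values. Its log2 fold change was 0.71 ± 0.25 (edgeR adjusted p = 0.22, interval (95%) 0.13 to 1.30). Pgls had 65.8, 64.2 and 69.7 CPM in null and 96.4, 67.5 and 86.3 CPM in hHKDC1 OE, a log2 fold change of 0.32 ± 0.16 (edgeR adjusted p = 0.34), or 0.21 without hHKDC1 OE replicate 1. The part of the overlapping gene Fam129c in these Pgls values was not tested. The ratio of G6pdx to Pgls was 3.96 to 4.56 in null and 1.86, 4.11 and 2.03 in hHKDC1 OE (exact permutation p = 0.2).

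Tkt had 754, 804 and 670 CPM in null and 1383, 700 and 863 CPM in hHKDC1 OE, so that its log2 fold change of 0.40 ± 0.29 (edgeR adjusted p = 0.48) rested largely on replicate 1. Without that library it was 0.07. Prps1 (73.2 to 89.1 CPM in null, 76.3, 97.4 and 124 in hHKDC1 OE) and Prps2 (11.97 to 20.49 CPM in null, 19.2, 19.4 and 31.9 in hHKDC1 OE) were highest in replicate 3. Their log2 fold changes were 0.31 ± 0.20 (edgeR adjusted p = 0.44) and 0.43 ± 0.30 (edgeR adjusted p = 0.47). Without that library they were 0.12 and 0.15, and without null replicate 2 that of Prps2 was 0.18. The ratio of Prps1 to Prps2 overlapped between the groups, at 7.44 to 11.9 and 7.59 to 9.75.

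Taldo1 and Cad were the 2 members with groups apart in fat, beside 22.7% of all genes. Taldo1 had 380, 415 and 400 CPM in null and 473, 430 and 448 CPM in hHKDC1 OE, a log2 fold change of 0.18 ± 0.16 (edgeR adjusted p = 0.56, exact permutation p = 0.1). Cad had 27.5, 28.7 and 29.8 CPM in null and 35.3, 30.5 and 31.9 CPM in hHKDC1 OE, with 0.18 ± 0.14 (edgeR adjusted p = 0.51, exact permutation p = 0.1). Both shifts were small, and their intervals (95%) ended at 0.54 and 0.52. Without null replicate 1 they were 0.11 and 0.12, and without hHKDC1 OE replicate 1 that of Cad was 0.12.

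Across the 6 fat libraries the members sorted into groups, given as a description over libraries that share these markers. On log2 CPM, Pearson's r of G6pdx with Pgd was 0.90, and of G6pdx with Rpia -0.95 and with Pgls -0.90 (n = 6). Taldo1 and Cad had r = 0.94, Pgls and Cad 0.93, and Prps1 and Prps2 0.83. The G6pdx pair and the Rpia and Pgls pair thus split the same libraries, the 2 with the highest lymphocyte marker sums from the other 4. In the 6 liver libraries the pairs named for G6pdx went otherwise, with r = 0.13 for Pgd, 0.24 for Rpia and 0.40 for Pgls, and Prps1 with Prps2 had r = -0.40. The highest values in liver were those of Rpia with Prps2 (0.95) and Pgd with Tkt (0.80).

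Without hHKDC1 OE replicate 2, 2 of 10 members were called in fat, beside 18.9% of the 17190 genes tested (3251 genes, with 11.4% higher and 7.53% lower). G6pdx was then at -0.71 (edgeR adjusted p = 0.021) and Rpia at 0.91 (edgeR adjusted p = 0.017). These calls compare the 2 libraries with the highest lymphocyte marker sums with null, and the lymphocyte part cannot be told apart from the hHKDC1 OE group in them.

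**Figure D4:**
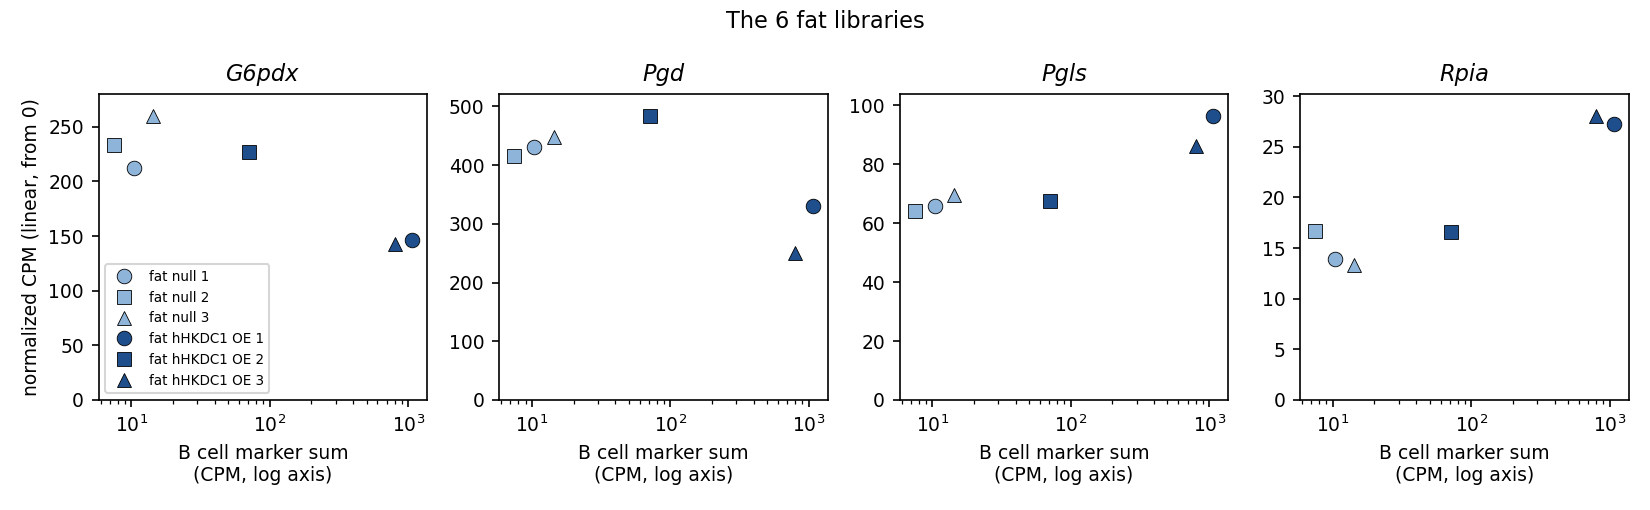
Normalised CPM of G6pdx, Pgd, Pgls and Rpia (vertical axes, linear from 0) against the summed CPM of 10 B cell markers (horizontal axis, log scale) in the 6 fat libraries. Light symbols are null, dark symbols hHKDC1 OE, and shapes give the replicate. hHKDC1 OE replicates 1 and 3, at 1071 and 800 CPM of B cell markers, had 146 and 143 CPM of G6pdx, and replicate 2, at 70.9 CPM, had 227.

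The further lists in fat held 0 called genes. By the same choice of genes, they gave Slc7a11, the cystine transporter, among NRF2 targets (6.19 ± 1.19, edgeR adjusted p = 0.13) and Mthfd2 (1.61 ± 0.46) and Mthfd1l (1.19 ± 0.56) among folate genes. These were not the direction of their lists, since NRF2 targets had 2 genes above 0 and 6 below (median -0.10) and folate genes 3 above and 4 below (median -0.23). In salvage Aprt was at 1.53 ± 0.44 and Upp2 at -1.42 ± 0.32, and in deoxynucleotide synthesis Rrm2 at 1.44 ± 0.51 and Dut at 1.29 ± 0.35. Deoxynucleotide genes had a median of 0.39 and proliferation genes of 1.48 (Ccna2 2.12 ± 0.52, Birc5 1.96 ± 0.62), against 0.25 for the members. Rpe (-0.39 ± 0.21) and H6pd (-0.63 ± 0.22), the microsomal hexose-6-phosphate dehydrogenase, led the further pentose phosphate genes, of which 6 of 7 were below 0.

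The remaining lists in fat gave Nme1 (0.91 ± 0.27) and Ctps (0.37 ± 0.21) for pyrimidines, Adssl1 (-1.27 ± 1.12) and Impdh2 (0.51 ± 0.24) for purines, and Prpsap2 (0.24 ± 0.21) and Prpsap1 (0.10 ± 0.18) for PRPP. Idh2 (-0.44 ± 0.17) and Idh1 (-0.33 ± 0.20) led the NADPH list, G6pc (-1.44 ± 0.64) the glucose 6-phosphate list, Pklr (-1.53 ± 0.64) and Scd1 (-0.65 ± 0.43) the lipogenic list, and Hmox1 (0.61 ± 0.22) followed Slc7a11 among NRF2 targets. None of these passed the edgeR test, and they are log2 fold changes, hHKDC1 OE minus null. Hepatocyte markers in the fat libraries were below 0 for 10 of 10 genes in this comparison, with a median of -1.37. Their part in the values of G6pc, Pklr and Upp2 was not tested.

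**Figure D5:**
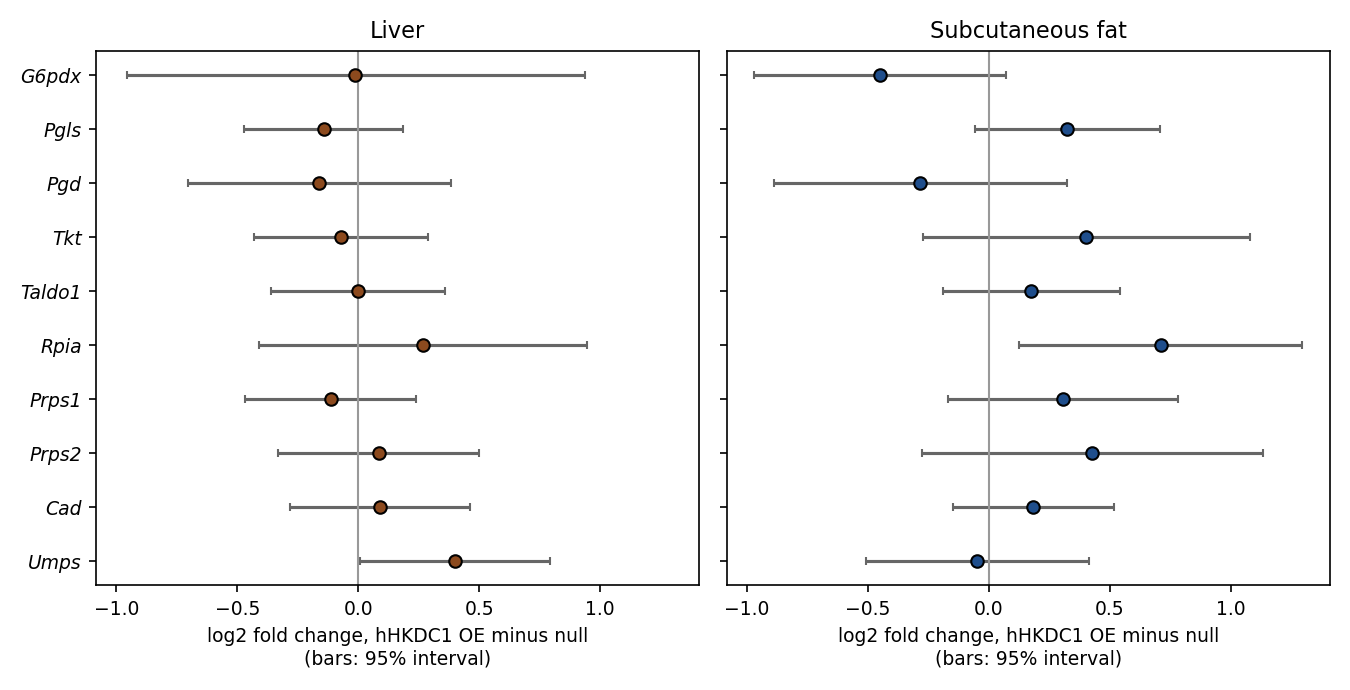
Log2 fold change, hHKDC1 OE minus null (horizontal axes), with the 95% interval as bars, for each gene in liver (left) and subcutaneous fat (right), 3 against 3 libraries each. The interval held 0 for 9 of 10 genes in each tissue, the exceptions before adjustment being Umps in liver (0.01 to 0.79) and Rpia in fat (0.13 to 1.30), and Umps in fat lay at -0.05 on this scaling and at 0.11 by library size alone.

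Whether the difference between hHKDC1 OE and null was itself different in the 2 tissues was tested directly, as fat minus liver of the hHKDC1 OE minus null differences over all 12 libraries. For 0 of 10 members did this difference pass the edgeR test, beside 0% of the 17070 genes tested. At an unadjusted p under 0.05 it was 1 member, Pgls, at 0.55 ± 0.22 (edgeR adjusted p = 0.33), beside 12.7% of all genes (2163 genes), and DESeq2 called 0 members and 493 genes, 2.89% of those it tested. Pgls had fallen short of the test in each tissue, at -0.14 in liver and 0.32 in fat. With 1 of the 12 libraries left out its difference lay between 0.28, without fat hHKDC1 OE replicate 1, and 0.66. For Tkt the difference was 0.56 ± 0.35, for Rpia 0.53 ± 0.40, for Prps1 0.50 ± 0.26, for G6pdx -0.36 ± 0.48 and for Umps -0.37 ± 0.27, each with an interval that held 0. The other members lay between -0.04 for Pgd and 0.43 for Prps2. Single libraries moved these values: with 1 left out, Tkt lay between 0.08 (without fat hHKDC1 OE replicate 1) and 0.68, Rpia between 0.25 (without fat hHKDC1 OE replicate 3) and 0.83, and Prps1 between 0.17 (without fat hHKDC1 OE replicate 3) and 0.59. G6pdx lay between -0.81 (without fat hHKDC1 OE replicate 2) and -0.13 (without liver hHKDC1 OE replicate 2), Umps between -0.66 (without fat hHKDC1 OE replicate 3) and -0.19 (without liver hHKDC1 OE replicate 1), and Taldo1 between 0.05 (without fat null replicate 1) and 0.35.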

How the data were processed

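Paired-end, non-stranded libraries were aligned with STAR 2.5 and counted per gene with HTSeq 0.6.1, per the submitters' processing notes. The methods name the human genome, but all rows are mouse Ensembl genes, and 98.1% have the position given in GENCODE mouse release 21, so coordinates are those of GRCm38. The authors deposited unnormalised counts and FPKM. The FPKM could be recomputed within 1% from the counts, the summed exon length and size factors over the 12 libraries for 100.0% of 252371 values above 0. Tables of the authors' own fold changes and p-values were not used.

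Each comparison was fitted with edgeR 4.0.16 in R 4.3.3 (glmQLFit and glmQLFTest, TMM, filterByExpr, Benjamini-Hochberg over all genes tested). Calls were made at an adjusted p under 0.05. All 10 members passed the filter in every comparison. CPM is edgeR's, normalised within the comparison, and single values were tested with an exact two-sided permutation test, which cannot go below 0.1 with 3 against 3. Libraries are labelled as separate replicates, but the labels do not tie them to animals, so p-values measure the spread between these libraries. No pair was near-identical (chi-square per gene 19.78 to 154). G6pdx and Rpia had the fewest counts in liver (33 to 123). Fits were first tested on simulated counts.

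The members and the lists were chosen with earlier results of these data known. Named in the text are the 10 members, up to 4 genes of each further list with the smallest p among those called, or otherwise the 2 of at least 1 CPM with the largest log2 fold change, the leading genes of marker lists, and mouse Hkdc1. Ikbkg, Fam129c, G6pc, Me1, Fasn and the near copies Prps1l1, G6pd2, Tktl1 and Tktl2 lie outside this rule in the place where they are named and were chosen after their values were seen. A gene that the rule would name is not reported here. Alternatives were DESeq2 1.42.0, upper-quartile scaling, library size alone, other count filters, 12 libraries in 1 fit, a replicate block and each library left out.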

Additional observations from a re-analysis of the deposited data

How the results depend on the processing

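Over the alternatives, the count of members called stayed at 0 in liver and for the difference between tissues, and at 9 in the tissue comparison, with the same 2 directions except under library size alone (8 higher, 1 lower). In fat it was 0 to 2 with 1 library left out, the 2 arising without hHKDC1 OE replicate 2. Signs near 0 were not stable. In liver, Taldo1 (main value 0.00) was at 0.008 with upper-quartile scaling, 0.063 with library size alone, 0.004 without a filter, 0.005 with at least 10 counts in every library and 0.002 with a replicate block, and G6pdx was at 0.043 and Tkt at 0 with library size alone. In fat, Umps was at 0.112 with library size alone and at 0.012 with 12 libraries in 1 fit. Between tissues, Prps2 was at 0.708 and Umps at 0.02 with library size alone, and Prps2 at 0.127 in the hHKDC1 OE libraries. With 1 library left out, the log2 fold changes in liver were -0.343 to 0.152 for Pgd, -0.21 to 0.019 for Tkt, -0.092 to 0.119 for Taldo1, -0.194 to 0.025 for Prps1, -0.26 to 0.369 for G6pdx, -0.052 to 0.409 for Rpia and -0.067 to 0.17 for Prps2. They were -0.194 to 0.024 for Umps in fat, -0.303 to 0.07 for Prps2 between tissues, and -0.537 to 0.124 for Pgd, -0.039 to 0.223 for Cad and -0.004 to 0.559 for Prps2 in the difference between tissues. The cause was not tested.

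In liver 0 genes were called in the edgeR fit, 90 by DESeq2, 2 with library size alone, 327 without a filter, 17 with the replicate block and 146 without hHKDC1 OE replicate 2. In fat these were 0 in the edgeR fit, 1301 by DESeq2, 803 without a filter, 876 with 12 libraries in 1 fit, 168 with the block, 2 without null replicate 3 and 3251 without hHKDC1 OE replicate 2. For the difference between tissues they were 0, 493 by DESeq2, 479 without a filter and 1211 without fat hHKDC1 OE replicate 2.

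The labels do not say that a replicate number marks a shared animal or batch, and not every same-numbered pair correlated above 0.1. Deviations of same-numbered libraries correlated at 0.20, 0.17 and 0.09 in liver, 0.03, -0.13 and 0.05 in fat and 0.26, 0.04 and 0.15 between tissues. Differently numbered libraries correlated at -0.2 to 0.06 in liver, -0.22 to 0.29 in fat and -0.21 to 0.03 between tissues, so every library correlated best with its own number in liver and between tissues but not in fat, a hint from the data and not from the design. With the replicate block the members called were 0 in liver, 0 in fat, 0 for the difference between tissues and 9 between tissues.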
